A study of Mus musculus with 6 samples.

Results

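The genes described here are 41 genes of homologous recombination and of repair under replication stress, measured in cultured mouse tail tissue fibroblasts. They were named from the pathway, with earlier results of these data known, and every non-control probe whose accession maps to one of them was taken. These were 67 of 56605 probes, for 41 of 45616 genes on the array, and 22 of the 41 genes had more than 1 probe. The cells came from C57BL/6 mice with the genotype LH2 F/F CAG-Cre, also labelled LH2 cKO. They carry a conditional allele of lysyl hydroxylase 2 (LH2, the product of Plod2, which hydroxylates lysines of collagen) and a Cre recombinase under the CAG promoter, which is active in most cell types. Control cells had this same genotype and were kept in tamoxifen (-) medium. The cells called no.1 had 24 h of tamoxifen and then tamoxifen (+) medium, and those called no.2 had the same 24 h and then tamoxifen (-) medium. Each group had 2 arrays, and the labels do not say whether these came from separate cultures or mice, so p-values measure only the spread between these arrays. No group lacked the conditional allele, so tamoxifen and loss of LH2 cannot be told apart.

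Homologous recombination repairs a broken chromosome by copying an intact sister. The broken end is cut back to single-stranded DNA, and BRCA2 and other mediators prepare that strand to invade the matching duplex. At stalled replication forks the kinase ATR and its target CHK1 hold back the cell cycle, and the Fanconi anaemia proteins unhook crosslinked strands. In fibroblasts, as in other cells, most of these genes are transcribed mainly in cells that are about to copy or are copying their DNA, and the transcription factors of the E2F family are known to drive many of them.

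Total RNA was read on 1-colour Agilent arrays, and a level is given here as the background-subtracted signal of a gene's probe divided by the array's 75th percentile signal. Levels therefore compare arrays for 1 gene, not genes with each other. The share of probes flagged as well above background ran from 44.2% to 45.7% for the controls, with 53.4% and 53.5% for no.1, then 48.4% and 48.6% for no.2. Slide row 1 held both control arrays and row 2 the rest, so in comparisons with control the row cannot be told apart from the group. Plod2, the targeted gene, fell by 2.13 in no.1 (SE 0.34, adjusted p = 0.00613) and by 2.57 in no.2 (SE 0.34, adjusted p = 0.00767) on the log2 scale. Relative to the arrays' spike-in controls those values were -0.20 (adjusted p = 0.571) and -1.29 (adjusted p = 0.0127). Of 8 fibroblast markers, 7 were well above background on all 6 arrays, among them Col1a1, Col1a2 and Vim, and Lum on none. Markers of other cell types were partly present. On all 6 arrays 3 of 6 macrophage and leukocyte markers (Cd68, Csf1r and Cd14), 2 of 4 chondrocyte markers, 1 of 6 keratinocyte markers, 1 of 5 skeletal muscle markers, 1 of 5 Schwann cell and melanocyte markers and 0 of 5 endothelial markers were well above background. The defining leukocyte gene Ptprc and the muscle regulators Myod1, Myog and Myf5 did not pass the filter on dim probes.

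Most of the recombination and replication-stress genes were higher in no.1 than in control cells, and 20 of the 41 passed the test as higher in no.2. All 41 passed the filter on dim probes, and 33 were well above background on all 6 arrays. In no.1 against control, 31 genes rose, Smc5 alone fell (not so against the spike-in controls, where it measured 0.33), and 9 did not pass the test at a limma adjusted p under 0.05. The calls over all 23058 tested genes were 21.4% higher and 26.4% lower, 47.8% in either direction. The median log2 fold change was 1.65 over the 41 genes, or 1.33 with genes that no control array detected set at their bound, against -0.12 over all tested genes. In no.2 against control, 20 rose, Smc5 again alone fell (-0.27 against the spike-in controls, not called), and 20 did not pass the test, where 12.1% of all genes were called higher and 16.2% lower (28.3% in either direction; with quantile normalization 3745 genes higher and 3106 lower, with median scaling 4841 and 2176, where the 75th percentile gave 2790 and 3727). The median there was 0.89, or 0.85 with bounds, against -0.10 over all genes. The 2 comparisons share the control arrays. The 20 genes called higher in no.2 were also called higher in no.1, 11 were called higher in no.1 alone, and 9 in neither. These are bulk samples, so a change in the share of cells that express a gene and a change in its RNA per cell cannot be told apart.

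**Figure D1:**
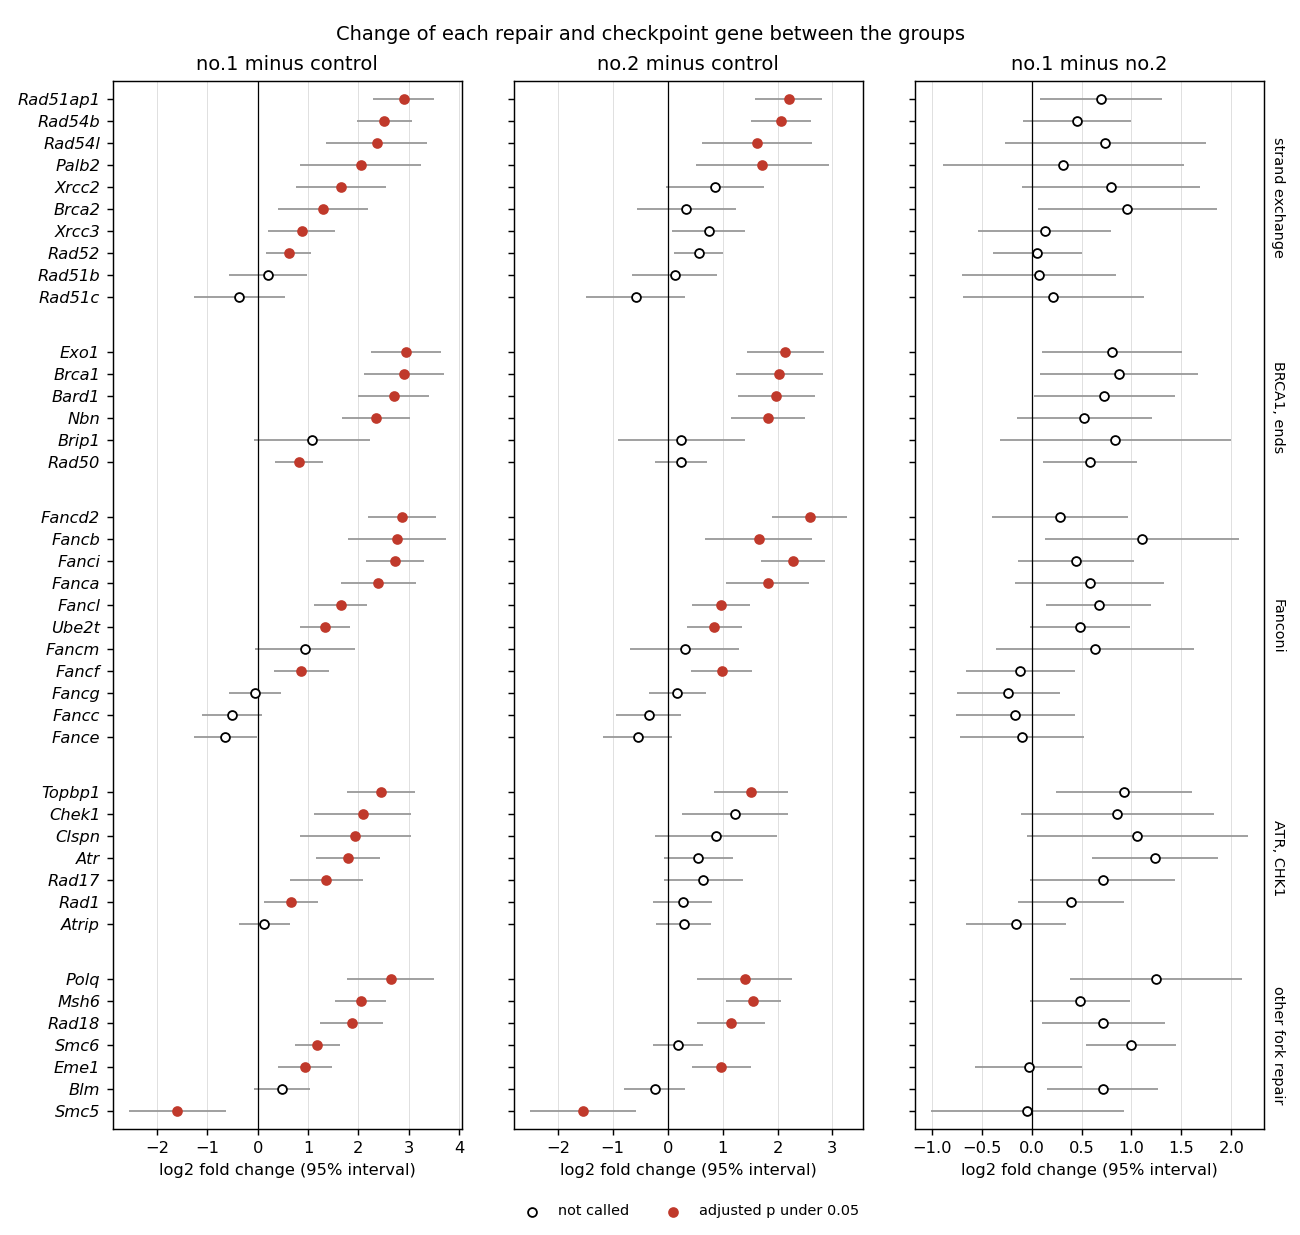
Log2 fold change of each of the 41 genes (points) with its 95% interval (lines) in no.1 against control, no.2 against control and no.1 against no.2, with genes ordered by role. Filled points have a limma adjusted p under 0.05: 32 in the left panel, 21 in the middle and 0 on the right, and Smc5, which was called in neither comparison against the spike-in controls, is the only filled point below 0.

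These counts depend on which arrays enter the fit, and each refit with fewer samples also has fewer residual degrees of freedom. With the control arrays averaged into 1 sample, 21 of the 32 calls in no.1 and 7 of the 21 in no.2 were kept, all higher, where 9.8% and 2.5% of all genes were called higher. Calls fell to 20 of 41 in no.1 without control replicate 1 and also to 20 without no.1 replicate 1, where 23.4% and 25.3% of all genes were called. In no.2 they fell to 9 without control replicate 1 (7.42% of all genes), to 8 without control replicate 2 (5.63%) and to 13 without no.2 replicate 2 (13.1%), and the no.2 calls of Rad51ap1, Rad54b, Exo1, Fancd2, Fanci and Msh6 alone held whichever array was left out. Changes are measured against the bulk of genes on each array: scaled to the spike-in controls, the median of all genes moved from -0.12 to 1.81 in no.1 and from -0.10 to 1.17 in no.2, and the median of the 41 genes to 3.57 and 2.16. On that scale each of the 40 genes other than Smc5 was called higher in no.1, where 82.2% of all genes were called higher. With normexp background correction, which shrinks ratios of dim probes, the medians of the 41 genes were instead 0.58 and 0.25. In no.1 26 genes were then called higher and Palb2 and Rad51c lower, with Smc5 not called (25.1% of all genes higher and 44.8% lower). In no.2 13 were called, all higher (13.2% of all genes higher and 21.5% lower).

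The arrays themselves can be read without a test. In 35 of the 41 genes both no.1 arrays read above both control arrays, in 3 (Smc5, Fancc and Fance) both read below, and in 3 the groups overlapped, where 36.7% of all genes were non-overlapping and higher and 44.7% lower. In no.2 against control 31 genes were non-overlapping and higher and 3 lower, against 33.2% and 41.3% of all genes. The no.2 arrays mostly lay between. In 22 of the 41 genes both control arrays were below both no.2 arrays and these below both no.1 arrays, an order that 12.3% of all genes had.

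**Figure D2:**
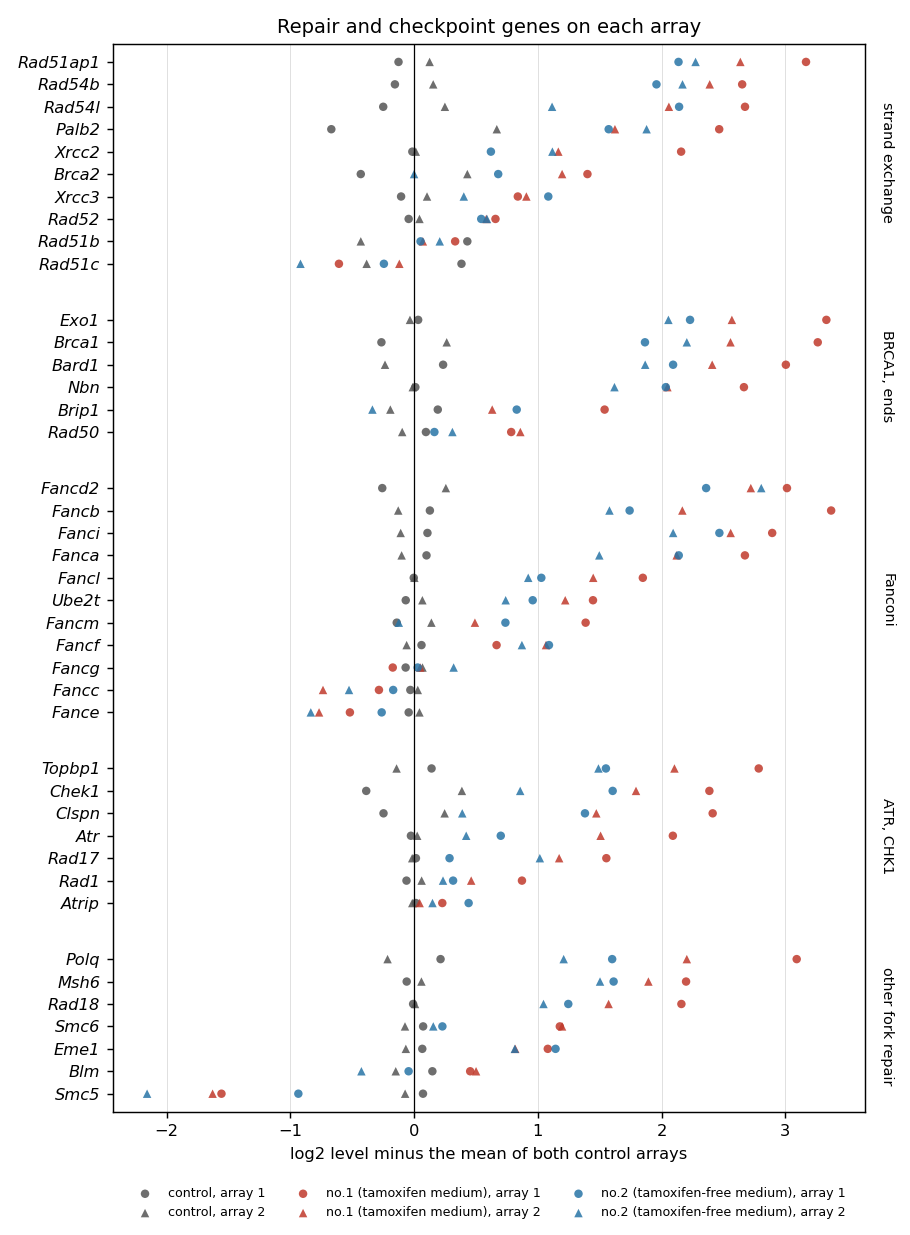
Level of each of the 41 genes on each of the 6 arrays, as log2 of signal over the array's 75th percentile with the gene's mean over the control arrays subtracted (grey: control, red: no.1, blue: no.2; circle: first array, triangle: second array). In most genes the red circle lies farthest to the right, and Smc5, Fancc, Fance and Rad51c lie below 0 on all 4 treated arrays.

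The first role group is strand exchange, the step in which the broken strand pairs with a matching duplex. Of its 10 genes 8 rose and none fell in no.1 (median 1.48), and 4 rose in no.2 (median 0.81). Rad51ap1, whose protein promotes strand invasion, read 1.018 and 1.21 for the controls, 9.97 and 6.91 for no.1, then 4.88 and 5.37 for no.2. Its treated arrays lay above both control arrays without overlap, with a log2 fold change of 2.90 (SE 0.25, adjusted p = 0.00165) in no.1 and 2.21 (SE 0.25, adjusted p = 0.00495) in no.2. Rad54b, a DNA translocase that acts in strand exchange, read 0.217 and 0.269 for the controls, 1.52 and 1.26 for no.1, then 0.938 and 1.09 for no.2. The 3 groups did not overlap, with no.2 between control and no.1. It rose by 2.52 (SE 0.22, adjusted p = 0.00174) and 2.06 (SE 0.22, adjusted p = 0.00439). Rad54l, the related translocase RAD54, read 0.348 and 0.491 for the controls, 2.64 and 1.72 for no.1, then 1.82 and 0.895 for no.2, and its no.2 arrays overlapped the no.1 arrays but not the control arrays. It rose by 2.37 (SE 0.41, adjusted p = 0.00744) and 1.63 (SE 0.41, adjusted p = 0.0343), and the no.1 call was lost without no.1 replicate 1. The promoter window of Rad51ap1 is shown as that of the gene with the largest rise in this group, with the CCAAT box (CCAAT, or ATTGG on the other strand) in capitals.
Rad51ap1 promoter, chr6:126939538-126939837, minus strand: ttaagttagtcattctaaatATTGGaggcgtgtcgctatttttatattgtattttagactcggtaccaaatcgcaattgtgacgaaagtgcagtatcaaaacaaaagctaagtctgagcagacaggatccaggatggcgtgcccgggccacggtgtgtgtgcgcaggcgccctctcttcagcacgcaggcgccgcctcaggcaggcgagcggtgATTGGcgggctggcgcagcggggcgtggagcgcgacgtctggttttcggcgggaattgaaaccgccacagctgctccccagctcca

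The same group holds the BRCA2 mediators and the XRCC2 and XRCC3 family. Palb2, which links BRCA1 to BRCA2, was not well above background on either control array and was at least 1.49-fold higher in no.1 and at least 1.198-fold higher in no.2 (adjusted p = 0.0188 and 0.0472), a no.1 call lost without control replicate 1 or no.1 replicate 1. The no.2 call of Palb2 was lost with quantile normalization, with no filter on dim probes and with only the 2 groups compared. Its direction turned with normexp, to -0.32 (adjusted p = 0.0218) in no.1 and -0.12 (adjusted p = 0.288) in no.2. Brca2, the central mediator of strand exchange, rose by 1.30 (SE 0.37, adjusted p = 0.0302) in no.1 and measured 0.34 (adjusted p = 0.501) in no.2, and its no.1 call was lost without control replicate 1 or either no.1 array. Of the XRCC2 and XRCC3 family, which assists strand exchange, Xrcc2 was not above background in control and measured 3.16-fold higher in no.1 (adjusted p = 0.0141). This fold is the estimate and not a lower limit, with a 95% interval of 0.77 to 2.55 on the log2 scale. The Xrcc2 call was lost without either control array and with normexp, at 0.0014 (adjusted p = 0.994). Xrcc3 rose by 0.87 (SE 0.27, adjusted p = 0.0412) in no.1, and its call was lost when any control or no.1 array was left out. Rad51b measured 0.20 (adjusted p = 0.619) and Rad51c -0.36 (adjusted p = 0.443), the latter well above background on 4 of 6 arrays and called lower with normexp, at -0.55 (adjusted p = 0.00329). Rad52, which anneals single strands, rose by 0.62 (SE 0.18, adjusted p = 0.0345) in no.1 and measured 0.57 (adjusted p = 0.0637) in no.2, and its call too was lost when any control or no.1 array was left out.

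Genes of the BRCA1 complexes and of end processing had the largest median of the 5 role groups, 2.53 in no.1 and 1.90 in no.2. Of 6 genes, 5 rose in no.1 and 4 in no.2. Exo1, an exonuclease that cuts back DNA ends, read 0.936 and 0.894 for the controls, 9.21 and 5.43 for no.1, then 4.29 and 3.80 for no.2. Every treated array lay above both control arrays, with no.2 between control and no.1. It rose by 2.95 (SE 0.29, adjusted p = 0.00214) in no.1 and 2.14 (SE 0.29, adjusted p = 0.00781) in no.2. Bard1, the partner with which BRCA1 forms a ubiquitin ligase, read 0.551 and 0.398 for the controls, 3.76 and 2.49 for no.1, then 2.00 and 1.71 for no.2, and the 3 groups did not overlap. It rose by 2.71 (SE 0.29, adjusted p = 0.00269) and 1.98 (SE 0.29, adjusted p = 0.00933). Brca1 itself read 0.141 and 0.204 for the controls, 1.63 and 1.00 for no.1, then 0.619 and 0.783 for no.2, and only 1 of its control arrays was well above background. Here too the groups did not overlap. Its log2 fold changes were 2.91 (SE 0.32, adjusted p = 0.00287) and 2.03 (SE 0.32, adjusted p = 0.0113). The Brca1 window is given for its rise, with the CCAAT box in capitals.
Brca1 promoter, chr11:101551906-101552205, minus strand: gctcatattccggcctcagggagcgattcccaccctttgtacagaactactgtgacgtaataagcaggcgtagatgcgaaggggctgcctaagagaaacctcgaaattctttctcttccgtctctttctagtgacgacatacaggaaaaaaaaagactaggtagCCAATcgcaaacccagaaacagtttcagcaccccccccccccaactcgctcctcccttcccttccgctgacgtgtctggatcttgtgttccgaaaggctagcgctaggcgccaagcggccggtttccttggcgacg

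RAD50, NBN and MRE11 form the complex that first holds and trims a break. Rad50 read 1.45 and 1.27 for the controls, 2.33 and 2.45 for no.1, then 1.52 and 1.68 for no.2. The no.2 arrays lay just above control and the no.1 arrays above both. It rose by 0.82 (SE 0.19, adjusted p = 0.0172) in no.1 and measured 0.24 (adjusted p = 0.375) in no.2, and the no.1 call was lost when any control or no.1 array was left out. Nbn was not above background in control. With control raised to the lowest detected signal, it measured 4.71-fold higher in no.1 and 3.26-fold higher in no.2 (adjusted p = 0.00327 and 0.0102). These folds do not allow for the spread between arrays: the 95% intervals were 1.68 to 3.04 and 1.15 to 2.51 on the log2 scale. Neither was called under normexp, at 0.32 (adjusted p = 0.0699) and 0.20 (adjusted p = 0.253). Brip1, a helicase bound to BRCA1, measured 1.09 (adjusted p = 0.103) in no.1.

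The Fanconi anaemia genes encode a core complex, the clamp it modifies and the enzymes that modify it. Of 11 genes, 7 rose and none fell in both no.1 (median 1.33) and no.2 (median 0.98). The substrates FANCI and FANCD2, a clamp that is ubiquitylated at crosslinks, were among them. Fanci read 0.388 and 0.334 for the controls, 2.67 and 2.12 for no.1, then 1.99 and 1.53 for no.2. The 3 groups did not overlap, and it rose by 2.73 (SE 0.24, adjusted p = 0.00172) and 2.28 (SE 0.24, adjusted p = 0.00424). Fancd2 was not above background in control and was at least 2.15-fold higher in no.1 and at least 1.76-fold higher in no.2 (adjusted p = 0.00209 and 0.00439). Normexp turned these to -0.16 (adjusted p = 0.106) and -0.033 (adjusted p = 0.729) on the log2 scale, neither called. The enzymes of that ubiquitylation rose as well. Fancl, the ligase, rose by 1.65 (SE 0.22, adjusted p = 0.00383) in no.1 and 0.98 (SE 0.22, adjusted p = 0.0241) in no.2. Ube2t, the conjugating enzyme that serves it, rose by 1.33 (SE 0.20, adjusted p = 0.00542) and 0.85 (SE 0.20, adjusted p = 0.0301).

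Of the other genes of the core complex, which carries FANCL, some rose and some did not pass the test. Fancb read 0.291 and 0.244 for the controls, 2.75 and 1.196 for no.1, then 0.890 and 0.795 for no.2. The groups did not overlap, although its first no.1 array was well above its second, and it rose by 2.77 (SE 0.40, adjusted p = 0.00471) in no.1 and 1.66 (SE 0.40, adjusted p = 0.0298) in no.2. Fanca read 1.19 and 1.03 for the controls, 7.06 and 4.82 for no.1, then 4.87 and 3.12 for no.2. Its no.2 arrays overlapped the no.1 arrays and lay above control, and it rose by 2.40 (SE 0.31, adjusted p = 0.00370) and 1.82 (SE 0.31, adjusted p = 0.0130). Fancf rose by 0.87 (SE 0.22, adjusted p = 0.0231) and 0.98 (SE 0.22, adjusted p = 0.0266), with its no.1 call lost without either control array or no.1 replicate 2. It was the only called gene of the group with a larger value in no.2. Fancc measured -0.51 and -0.35, Fance -0.64 and -0.55, and Fancg -0.061 and 0.17 in no.1 and no.2, and none of these passed the test (adjusted p from 0.0808 to 0.826). These 3 measured above 0 in both comparisons when arrays were scaled to the spike-in controls. Fancm, the translocase that anchors the complex, measured 0.94 (adjusted p = 0.102) in no.1. The Fancb window follows, with the CCAAT box and the GC box (GGGCGG, or CCGCCC on the other strand) in capitals.
Fancb promoter, chrX:164980342-164980641, plus strand: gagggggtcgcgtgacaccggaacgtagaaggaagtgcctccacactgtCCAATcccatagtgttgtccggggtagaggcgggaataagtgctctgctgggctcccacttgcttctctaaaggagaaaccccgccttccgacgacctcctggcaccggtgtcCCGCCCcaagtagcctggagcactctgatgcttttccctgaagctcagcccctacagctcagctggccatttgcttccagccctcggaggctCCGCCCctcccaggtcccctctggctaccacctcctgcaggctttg

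Of the 7 genes of the ATR and CHK1 checkpoint, 6 rose in no.1 (median 1.80) but only Topbp1 passed the test in no.2 (median 0.65). Which gene passed in no.2 depends on the probe. With every probe tested as its own feature, a dimmer Chek1 probe was called there, at 2.07 (adjusted p = 0.0110). A dimmer Topbp1 probe was not, at 0.85 (adjusted p = 0.131). Topbp1, which switches ATR on, read 0.679 and 0.558 for the controls, 4.24 and 2.65 for no.1, then 1.80 and 1.73 for no.2, and the 3 groups did not overlap. It rose by 2.44 (SE 0.28, adjusted p = 0.00299) in no.1 and 1.52 (SE 0.28, adjusted p = 0.0156) in no.2. Chek1, the kinase CHK1, read 0.176 and 0.301 for the controls, 1.205 and 0.799 for no.1, then 0.701 and 0.418 for no.2. The no.2 arrays lay between control and no.1 without overlap. It rose by 2.09 (SE 0.40, adjusted p = 0.00914) in no.1 and measured 1.23 (adjusted p = 0.0627) in no.2, and the no.1 call was lost without no.1 replicate 1. Clspn, the adaptor through which ATR reaches CHK1, read 0.180 and 0.253 for the controls, 1.14 and 0.592 for no.1, then 0.556 and 0.280 for no.2, in the same order. It rose by 1.94 (SE 0.45, adjusted p = 0.0168) in no.1, a call lost without control replicate 1 or no.1 replicate 1, and measured 0.89 (adjusted p = 0.180) in no.2. The Topbp1 window holds a motif of the E2F family (GCGCGAAA) and the GC box on both strands, all in capitals.
Topbp1 promoter, chr9:103305077-103305376, plus strand: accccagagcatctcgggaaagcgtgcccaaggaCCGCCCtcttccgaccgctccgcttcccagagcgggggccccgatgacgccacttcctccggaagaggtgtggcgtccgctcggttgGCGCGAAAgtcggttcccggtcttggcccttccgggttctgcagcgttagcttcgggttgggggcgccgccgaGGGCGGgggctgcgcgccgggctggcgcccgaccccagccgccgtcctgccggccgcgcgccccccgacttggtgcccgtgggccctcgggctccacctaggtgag

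The kinase ATR and its partner were read by genes that differed in response. Atr read 0.666 and 0.690 for the controls, 2.89 and 1.93 for no.1, then 1.101 and 0.908 for no.2, with both no.1 arrays above all others. It rose by 1.80 (SE 0.26, adjusted p = 0.00469) in no.1 and measured 0.56 (adjusted p = 0.145) in no.2. Atrip, the subunit that brings ATR to single-stranded DNA, read 4.54 and 4.45 for the controls, 5.26 and 4.64 for no.1, then 6.10 and 4.98 for no.2. Its treated arrays lay slightly above control, and it measured 0.14 (adjusted p = 0.601) and 0.29 (adjusted p = 0.303). Rad17, which loads the checkpoint clamp, rose by 1.36 (SE 0.30, adjusted p = 0.0137) in no.1, a call lost without either control array or no.1 replicate 1. Rad1, a subunit of that clamp, rose by 0.67 (SE 0.22, adjusted p = 0.0475) in no.1, and its call was lost when any array other than no.1 replicate 2 was left out.

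The last role group holds enzymes that finish recombination or carry forks past damage. Of 7 genes, 5 rose in no.1 (median 1.19) and 4 in no.2 (median 0.98), and Smc5 is taken up last. Msh6, which recognises mismatches, read 4.40 and 4.78 for the controls, 21.1 and 17.0 for no.1, then 14.03 and 13.0 for no.2. The groups did not overlap, and it rose by 2.05 (SE 0.20, adjusted p = 0.00225) and 1.56 (SE 0.20, adjusted p = 0.00731). Rad18, the ligase that marks PCNA at stalled forks, read 0.679 and 0.687 for the controls, 3.05 and 2.03 for no.1, then 1.62 and 1.41 for no.2. No.2 lay between control and no.1, and it rose by 1.87 (SE 0.25, adjusted p = 0.00412) and 1.15 (SE 0.25, adjusted p = 0.0241). Polq, a polymerase that joins ends through short matches, was not above background in control. With control raised to the lowest detected signal, Polq measured 4.78-fold higher in no.1 and 2.02-fold higher in no.2 (adjusted p = 0.00398 and 0.0336). Its 95% intervals, which allow for the spread between arrays, were 1.79 to 3.51 and 0.54 to 2.27 on the log2 scale. With normexp it measured 0.27 (adjusted p = 0.184) and -0.020 (adjusted p = 0.927) on that scale, neither called. Eme1, which cuts branched DNA with MUS81, rose by 0.95 (SE 0.22, adjusted p = 0.0164) and 0.98 (SE 0.22, adjusted p = 0.0251), and its no.1 call was lost without either control array or no.1 replicate 1. Blm, the helicase that dissolves joined sisters, measured 0.48 (adjusted p = 0.128) and -0.23 (adjusted p = 0.452).

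SMC5 and SMC6 form 1 ring-shaped complex that acts on joined sister chromatids, but Smc6 rose and Smc5 fell when set against the bulk of genes, the fall not holding against the spike-in controls. Smc6 read 1.87 and 1.69 for the controls, 4.01 and 4.06 for no.1, then 2.08 and 1.98 for no.2. Both no.1 arrays lay above the others, and it rose by 1.19 (SE 0.19, adjusted p = 0.00571) in no.1 and measured 0.19 (adjusted p = 0.451) in no.2. Smc5 read 19.7 and 17.8 for the controls, 6.38 and 6.07 for no.1, then 9.81 and 4.21 for no.2. Every treated array lay below both control arrays, and the no.2 arrays spanned the no.1 arrays. It fell by 1.59 in no.1 (SE 0.40, adjusted p = 0.0204) and by 1.55 in no.2 (SE 0.40, adjusted p = 0.0354), and against the spike-in controls it measured 0.33 and -0.27 with neither called. The fall was not called in no.1 when any control or no.1 array was left out. Smc5 was read by 1 probe, and the RefSeq table lists 3 curated transcripts of the gene, so the level of its other transcripts was not measured separately.

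A ratio of 2 genes on 1 array does not depend on a factor by which the whole array is scaled. It can change with quantile normalization and with the background correction, and no ratio was fitted with quantile normalization or normexp. Ratios of 10 pairs of partners were fitted with all genes, and the pairs were chosen after the values had been seen. Smc6 over Smc5 rose by 2.78 (SE 0.38, adjusted p = 0.00410) on the log2 scale in no.1 and 1.74 (SE 0.38, adjusted p = 0.0230) in no.2. Atr over Atrip rose by 1.66 (SE 0.21, adjusted p = 0.00374) in no.1 and measured 0.27 (SE 0.21, adjusted p = 0.369) in no.2, and the difference of no.1 from no.2 was 1.40 (SE 0.21, adjusted p = 0.282). With normexp Atr and Atrip measured 1.03 and 0.55 in no.1, and 0.15 and 0.50 in no.2, where Atr was then the smaller. Smc6 and Smc5 measured 1.11 and -0.86 in no.1 with normexp, and 0.19 and -1.02 in no.2. Xrcc3 over Rad51c rose in both comparisons, by 1.24 (SE 0.35, adjusted p = 0.0314) and 1.32 (SE 0.35, adjusted p = 0.0393), with Rad51c above background on 1 of 2 control and 1 of 2 no.2 arrays, so the size of this ratio is uncertain. Nbn over Rad50, Xrcc2 over Rad51b and Palb2 over Brca2 each passed the test in at least 1 comparison, but the first gene of each was not above background in control. For 4 pairs no ratio passed the test. Ube2t over Fancl measured -0.31 (SE 0.19, adjusted p = 0.218) in no.1 and Clspn over Chek1 -0.15 (SE 0.23, adjusted p = 0.618). Bard1 over Brca1 measured -0.20 (SE 0.38, adjusted p = 0.674) with Brca1 above background on 1 of 2 control arrays, and Fancd2 over Fanci is given no value, since no control array detected Fancd2.

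The series' own comparison sets no.1 against no.2, cells kept in tamoxifen against cells taken out of it. None of the 41 genes, and 0 of 23058, passed the limma test there, the percentage called over all genes being 0. At an unadjusted p under 0.05 there were 14 of the 41 and 3823 of all genes. The point estimate was above 0 in 34 genes and below 0 in 7, with a median of 0.58 against -0.011 over all genes. In 24 of the 41 genes both no.1 arrays read above both no.2 arrays and in none below, where 22.5% of all genes read above and 25.4% below. Smc6 had the lowest p, with a difference of 0.99 (95% interval 0.54 to 1.45, adjusted p = 0.282). The next was Atr with 1.24 (0.61 to 1.87, adjusted p = 0.282). Both were called in the fit with no filter on dim probes, in which 8296 genes were called, 520 higher and 7776 lower in no.1, with Smc6 and Atr among the higher. That fit covered 45616 genes, also those too dim to pass the filter, and the median over all of them was -0.28. Neither Smc6 nor Atr was called between no.1 and no.2 in any other alternative. The checkpoint group had the highest median difference (0.86), followed by BRCA1 and ends (0.77), the last role group (0.71), the Fanconi genes (0.45) and strand exchange (0.39).

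Arrays of 1 group also differed among themselves in these genes. The first no.1 array read above the second in 34 of the 41 genes, with a median difference of 0.40 on the log2 scale, where 52% of all genes did with a median of 0.020. The first no.2 array read above the second in 30 genes (median 0.22), where 57.3% of all genes did (median 0.087). Between the control arrays it was 19 genes (median -0.015), where 44.8% of all genes did. The names of the deposited scans carry 24 h for the first and 48 h for the second array of both treated groups and 0 h for both controls, while the labels give the 2 arrays of a group as replicates. With 1 array for each such time in a group, time and array cannot be told apart. No control scan carries 24 h or 48 h, so in both comparisons with control these hours cannot be told apart from the group.

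Genes with several probes show how firmly a call holds. With every probe tested as its own feature, 43 of the 63 member probes that passed the filter were called higher in no.1 and 1 lower, where 22% of 29679 probes were called higher and 24.6% lower. Of 19 genes with more than 1 such probe, the probes of 10 got different calls and those of 4 had opposite signs. Blm, not called above, had a second probe whose signal was 11.1 and 10.3 for the controls, 191 and 137 for no.1, then 64.0 and 49.7 for no.2. This probe rose by 2.50 (SE 0.23, adjusted p = 0.00188) in no.1 and 1.67 (SE 0.23, adjusted p = 0.00842) in no.2, while the brighter probe measured 0.48 (SE 0.23, adjusted p = 0.130) in no.1 (in no.2, 11.9% of all probes were called higher and 14.7% lower). Fancm and Brip1 likewise had a dimmer probe that was called in no.1, at 2.90 (SE 0.52, adjusted p = 0.00801) and 2.24 (SE 0.39, adjusted p = 0.00723). Brca1 and Fanca went the other way. The second Brca1 probe measured -0.20 (SE 0.24, adjusted p = 0.507) against 2.91 (SE 0.32, adjusted p = 0.00278) for the first, and the second passing Fanca probe -0.69 (SE 0.29, adjusted p = 0.0966) against 2.40 (SE 0.31, adjusted p = 0.00359). Both probes of each of Rad51ap1, Rad54b, Rad18, Topbp1 and Chek1 were called higher in no.1. The probes' positions within the transcripts were not used here, and the cause of the disagreements was not tested.

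**Figure D3:**
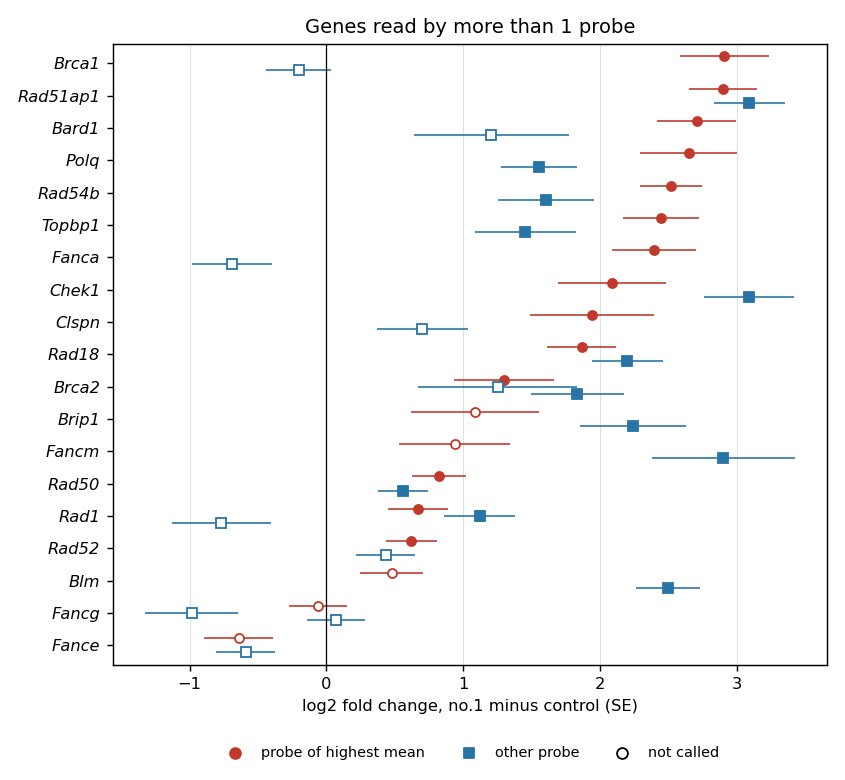
Log2 fold change in no.1 against control of every probe that passed the filter, for the genes with more than 1 such probe (points, with lines of 1 SE; red circles: the brightest probe, used for the gene; blue squares: other probes; filled: limma adjusted p under 0.05, open: not called). Blm, Brca1 and Fanca show probes more than 2 log2 units apart.

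Promoter windows of 300 bases, 250 before to 50 after the transcription start, were found in the RefSeq table (GRCm38.p6) for 35 of the 41 genes, and a gene with several starts counts as matched if any of its windows holds the motif. The E2F motif was searched as TTTGGCGC, TTTGCCGC, TTTCGCGC or TTTCCCGC on either strand. It was present in 7 of the 35 windows (20.0%) and in 2.61% of the windows of 27025 genes. The 7 genes were Rad51c, Brca2, Bard1, Fancg, Topbp1, Clspn and Msh6. Of the 25 genes with a window that rose in no.1, 5 had a match, and of the other 10, 2 did (Rad51c and Fancg). The matches are shown in capitals with 10 bases on each side, since they differ in orientation and in distance from the start.
Rad51c, chr11:87404478-87404505, minus strand: tttccagcgcTTTCGCGCctcttgctct
Rad51c, chr11:87404942-87404969, minus strand: ccccgcgaggGCGGGAAAagcaaggggt
Brca2, chr5:150522443-150522470, plus strand: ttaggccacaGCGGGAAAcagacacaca
Bard1, chr1:71103164-71103191, minus strand: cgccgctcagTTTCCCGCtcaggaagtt
Fancg, chr4:43010336-43010363, minus strand: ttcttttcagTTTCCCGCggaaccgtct
Topbp1, chr9:103305188-103305215, plus strand: cgctcggttgGCGCGAAAgtcggttccc
Clspn, chr4:126556991-126557018, plus strand: ccgcgtctggGCGCGAAAgctcgaactt
Msh6, chr17:87975055-87975082, plus strand: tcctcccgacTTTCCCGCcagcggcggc

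Rad51c has matches at more than 1 listed start. The first of its lines and those of Clspn and Msh6 lie after the start: that of Rad51c 11 bases after it, that of Clspn 21 bases after and that of Msh6 15 bases after. The match in Fancg begins 52 bases before the start, that in Topbp1 129 bases before, that in Brca2 168 bases before and that in Bard1 209 bases before. The CCAAT box (CCAAT) was in 18 of 35 windows (51.4%, all genes 41.1%), the GC box (GGGCGG) in 19 (54.3%, all genes 38.2%) and the cell cycle homology element (TTTGAA) in 5 (14.3%, all genes 20.2%). G and C made up a median of 59.7% of the genes' windows and 52.8% of all windows, and the E2F letters are rich in both. A match to letters is a description of the sequence and not a bound site.

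Other genes of the pathway are given from a list that was also drawn up with earlier results of these data known. Of 43 further recombination and fork genes that were tested, 27 rose and 4 fell in no.1 (median 0.98; against the spike-in controls all 43 were called higher, as were 82.2% of all genes). In no.2 14 rose and 2 fell (median 0.69), while 22 rose and 2 fell with quantile normalization, 25 and 0 with median scaling, and 40 and 0 against the spike-in controls, where 64.8% of all genes were called higher. Mcm8, a helicase subunit of late recombination, rose by 2.73 (SE 0.31, adjusted p = 0.00290) in no.1, and Gen1, a nuclease that cuts Holliday junctions, by 2.53 (SE 0.26, adjusted p = 0.00232). Dna2, a nuclease of end resection, was not above background in control and was at least 1.40-fold higher (adjusted p = 0.00313), but with normexp it turned to -0.29 (adjusted p = 0.0156). Rad51d, named here after its value was seen, fell by 0.96 in no.1 (adjusted p = 0.0151). Against the spike-in controls it was instead called higher, at 0.97 (adjusted p = 0.00977).

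Other repair routes had smaller medians. Of 16 genes of ATM signalling and chromatin ubiquitylation, 10 rose and none fell in no.1 (median 0.78), led by Rif1 (2.08), Paxip1 (2.07) and the kinase gene Atm (1.81). Of 10 genes of non-homologous end joining, which joins ends without a template, 6 rose and none fell (median 0.83). Aplf rose by 1.63, Xrcc6 by 1.11, and Prkdc, not above background in control, was at least 2.57-fold higher, turning with normexp to -0.18 (adjusted p = 0.0811). Of 30 tested genes of excision and mismatch repair, 14 rose and 2 fell (median 0.53; against the spike-in controls all 30 were called higher, as were 82.2% of all genes), with Msh3 at 2.41, Neil3 at 1.79 and Mbd4 at 1.77. In no.2 these 3 lists had 7, 3 and 10 genes that rose and none that fell.

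Targets of p53, which respond to DNA damage, did not share a direction on the 75th percentile scale. Of 18 targets, 6 rose and 5 fell in no.1 (median -0.13; with median scaling 7 and 1, and against the spike-in controls 17 and 0), and 2 rose and 5 fell in no.2 (median -0.20). The falls in no.2 were fewer on the other scales tried, with 2 higher and 1 lower under quantile normalization, 3 and 0 under median scaling, and 9 and 0 against the spike-in controls. Trp53inp1 rose by 1.44 and Ccng1 by 1.25 in no.1, and Sesn2 fell by 1.19. Cdkn1a, the cell cycle inhibitor p21, named after its value was seen, fell by 0.98 (adjusted p = 0.0141). Against the spike-in controls Sesn2 and Cdkn1a were instead called higher, at 0.74 (adjusted p = 0.0327) and 0.94 (adjusted p = 0.0144), as were 82.2% of all genes.

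Markers of dividing cells rose with the repair genes. Of 23 proliferation markers, 19 rose and none fell in no.1 (median 2.02, range 0.0081 to 4.16), and 16 rose and none fell in no.2 (median 1.48). Ccna2, Mki67 and Top2a had the largest changes. Of 17 E2F and DREAM regulators, 14 rose and none fell in no.1 (median 1.35) and 11 in no.2 (median 0.96). Foxm1 rose by 2.999, E2f7 by 2.99, and E2f5, not above background in control, was at least 5.42-fold higher. With normexp E2f5 measured only 0.38 on the log2 scale in no.1 (adjusted p = 0.0106). E2f1 measured -0.51 (adjusted p = 0.190). Of 7 fibroblast markers, 3 were called lower and none higher in both no.1 (median -1.28) and no.2 (median -0.087), but against the spike-in controls 3 were higher and 1 lower in no.1 (median 0.65) and 3 higher and none lower in no.2 (median 1.19). In no.1 Dcn fell by 3.73, Thy1 by 2.22 and Pdgfra by 1.54, or -1.80, -0.30 and 0.38 against the spike-in controls. Of the tested markers of other cell types, 1 of 3 macrophage and leukocyte, 1 of 2 chondrocyte, 1 of 2 skeletal muscle and 2 of 2 Schwann cell and melanocyte markers were called lower in no.1. The 2 endothelial markers (-0.34 and 1.89, lowest adjusted p = 0.0514) and the 1 keratinocyte marker (0.26) were not called. With quantile normalization or median scaling 1 endothelial marker was called higher. Of the 2 Schwann cell and melanocyte markers, 1 was called lower with quantile normalization and 0 with median scaling. Against the spike-in controls none was called lower, and 2 macrophage and leukocyte, 2 endothelial, 1 keratinocyte, 1 skeletal muscle and 1 Schwann cell and melanocyte markers were called higher, as were 82.2% of all genes. The part of dividing cells or of a change in cell type in the repair genes' rise was not tested.

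**Figure D4:**
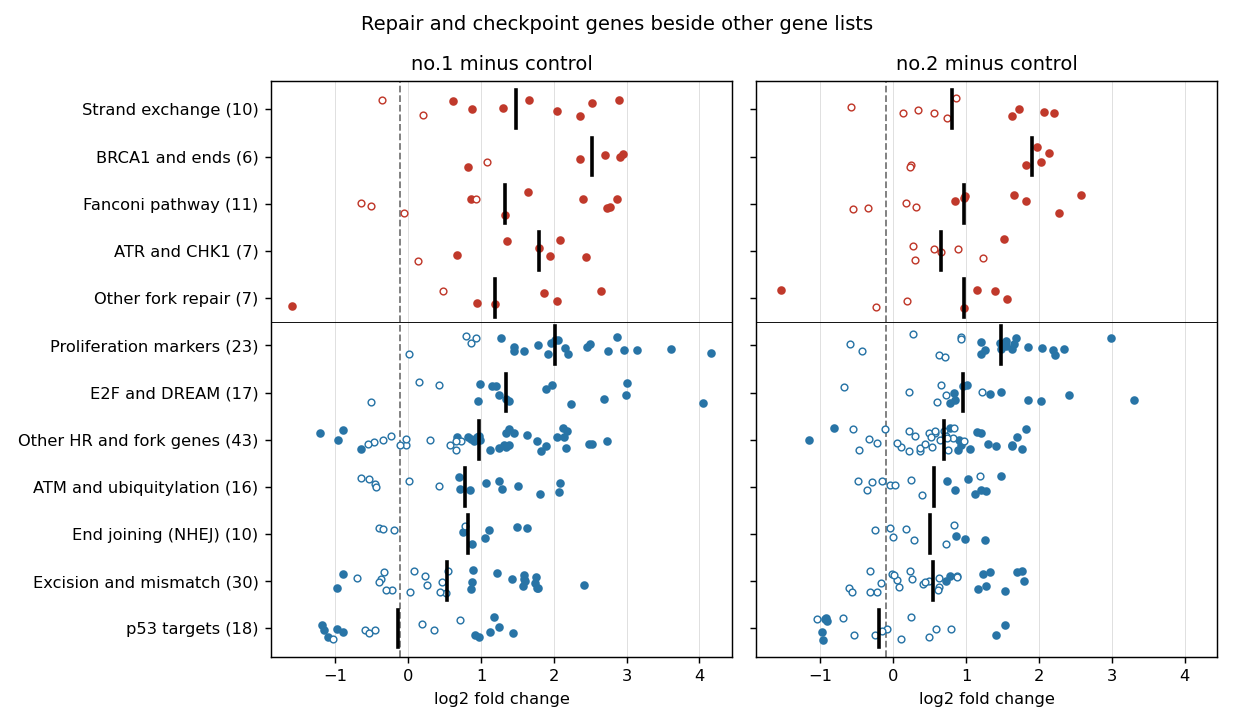
Log2 fold change of each tested gene in the 5 role groups (red dots) and in the other lists (blue dots), filled where the limma adjusted p is under 0.05 and open otherwise, with the number of tested genes in brackets, list medians (black bars) and the median over all tested genes (dashed line), in no.1 against control and no.2 against control. Proliferation markers and the BRCA1 group have the highest medians in no.1, 2.02 and 2.53, and p53 targets lie on both sides of 0.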

How the data were processed

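The authors deposited 1-colour Agilent scanner files (Feature Extraction 12.1.1.1 and build mm9, per the file headers; version 9.5.1.1, per the submitters' processing notes). Their intensity columns hold a processed signal that is background-subtracted and not normalized between arrays, with flags for background and saturation (0 probes saturated). The series value table, also intensity as deposited, agreed within 1% with the quantile-normalized processed signal for at least 99.9% of values on each array (column median 5.16).

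The processed signal was divided by its 75th percentile over the 56605 non-control probes of an array and taken to log2. Probe accessions were matched to a RefSeq gene list (GRCm38.p6), used for names only (32994 probes, 58.3%; 23611 kept the file's name). A gene was its probe of highest mean, tested if the 2 arrays of any group were flagged well above background (23058 genes). limma 3.58.1 in R 4.3.3 (lmFit, eBayes; package data.table, version 1.17.8) fitted 3 group means over 6 arrays with 3 residual degrees of freedom, and every adjusted p is limma's with Benjamini-Hochberg adjustment over all tested genes, called under 0.05. The fit was tested on simulated data. The number of arrays limits the precision. Tables and plots used pandas 2.3.3 and matplotlib 3.10.9. All arrays lay on 1 slide in 1 scan.

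Where both arrays of 1 group detected a gene and neither of another did, the fold is a lower limit, namely the mean of the bright group over that of the dim group, after raising each dim reading to the lowest detected signal of its array where it lay below this. For Xrcc2 no reading lay below this, so its fold is the estimate. Sequences are RefSeq's (GRCm38.p6), and motif matches got no test. Values on all arrays are given for the 3 largest changes in each role group among genes well above background in no.1 and control, for genes called against their group and for the lowest p between no.1 and no.2; Brca1, Atr and Atrip were added after their values were seen. From other lists up to 3 called genes with the largest change in no.1 are named. The members, lists and tests were chosen with earlier results of these data known. Alternatives were quantile, median and spike-in scaling (7 spike-in probes), normexp with an offset of 50 on the median signals, since the files hold no mean signal column, 2 filters, the mean over a gene's probes, the value table, averaged control arrays, the compared groups alone, a replicate block and each array left out. Single probes and partner ratios were added after seeing the data.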

Additional observations from a re-analysis of the deposited data

How the results depend on the processing

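Of the 32 calls in no.1 against control, 14 held in every alternative that tested the gene (Rad51ap1, Rad54b, Brca1, Bard1, Exo1, Fancb, Fancl, Fanci, Ube2t, Atr, Topbp1, Smc6, Rad18 and Msh6), and of the 21 in no.2, 4 did (Rad51ap1, Rad54b, Exo1 and Fanci). Median scaling gave medians of the 41 genes of 2.08 in no.1 and 1.203 in no.2, and split the 10859 genes called in no.1 into 7564 higher and 3295 lower, where the 75th percentile gave 4940 and 6080 of 11020 and quantile normalization 5982 and 5029 of 11011. Spike-in scaling gave medians of 3.57, 2.16 and, for no.1 against no.2, 1.24, with 19378 genes called in no.1 (18950 higher), 15493 in no.2 and 39 of the 41 genes called in no.2. Under it Fancc, Fance, Fancg, Rad51c and Smc5 turned to 1.42, 1.28, 1.87, 1.56 and 0.33 in no.1, and Blm, Fancc and Fance to 1.04, 0.93 and 0.72 in no.2. Normexp gave medians of 0.58 and 0.25, 13 of the 41 genes called in no.2, called 26 of the 41 higher and 2 lower in no.1 (Palb2 at -0.32, adjusted p = 0.0218, and Rad51c at -0.55, adjusted p = 0.00329), and turned Fancd2 and Palb2 to -0.16 and -0.32 in no.1 and Fancd2, Palb2 and Polq to -0.033, -0.12 and -0.020 in no.2. Its offset of 50 adds the same amount to every signal before scaling and shrinks ratios of dim probes. Since the 75th percentile signal differed between the groups, the offset can also move dim genes below 0 without a fall.

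Without a filter on dim probes 24872, 16476 and 8296 genes were called in no.1, in no.2 and between them, with 2 of the 41 in the last. Probes above background on all 6 arrays gave a median of 1.33 in no.1. With averaged control arrays 4845 and 1246 genes, and 21 and 7 of the 41, were called in no.1 and no.2. Leaving out each array in turn gave 20 to 32 and 8 to 18 of the 41 genes called in no.1 and no.2, 4998 to 12052 and 1298 to 6361 of all genes, 0 to 117 of all genes between no.1 and no.2 (117 without no.1 replicate 2), and medians of 1.22 to 1.85 and 0.84 to 1.08 in no.1 and no.2 and 0.37 to 0.84 between them. With the replicate number as a block, 30, 21 and 0 of the 41 genes and 10572, 6055 and 0 of all genes were called. The deviations of same-numbered arrays correlated at -0.035 and -0.017 between control and each treated group and at 0.165 between no.1 and no.2. Only no.1 and no.2, whose scan names carry the same hours, passed 0.1, so the numbers were not taken as pairing over all groups. A pairing of no.1 with no.2 alone was not fitted. Depth here is signal over background: 5 of the 41 genes had no control array above it, and Brca1, Brip1 and Rad51c only some.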
